A study of Mus musculus with 4 samples.

Results

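The mouse Ifi200 genes Ifi203, Ifi204, Ifi205, Ifi207, Ifi208, Ifi209, Ifi211, Ifi213 and Mndal, 9 of the 31053 genes with a row in every count matrix, were followed through the immune cells of control skin and of 2323 skin tumors. They were listed by name as members of the family, with earlier results of these data known. Immune cells (CD45+, DAPI-) had been sorted by flow cytometry after collagenase digestion and loaded, 1 droplet library of 3′ RNA per sample, as control 1, control 2, tumor 1 and tumor 2. Both control libraries came from skin of C57/BL6 mice that had received no tumor cells, whose age was not given. Both tumor libraries came from tumors taken 2 weeks after 2323 cells were injected into the flank of C57/BL6 mice, for which the methods give an age of 8 to 10 weeks and both sexes. The 2323 line was derived from a genetically engineered mouse model in which a keratin promoter directs an inducible Cre to epithelial cells, so every tumor cell descended from 1 line grown in culture and the sorted immune cells belonged to the host. The labels give a replicate number for each library but not the animal, and the methods name 2 tumors and 2 control skins. The p-values measure the spread between the 2 libraries of a group.

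Ifi200 genes encode PYHIN proteins, most of which join an amino-terminal pyrin domain, a protein interaction module, to a carboxy-terminal HIN domain, which binds DNA. Several of these proteins bind DNA in the cytosol or the nucleus, and the genes are known as a cluster that interferons switch on in myeloid cells and lymphocytes. Their relative Aim2 assembles an inflammasome with the adaptor Pycard and with Casp1 when it meets DNA in the cytosol, whereas Ifi204 has been linked to the interferon response that runs through the DNA sensor cGAS (Mb21d1) and STING (Tmem173).

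All 9 genes lie on chromosome 1 within 465.5 kb (chr1:173566283-174031810, GRCm38), 2 on the plus strand and 7 on the minus strand. In the GENCODE annotation Mndal (chr1:173849126-173942491, minus strand) spans the whole of Ifi211 and nearly all of Ifi203 on the same strand. The RefSeq starts of Mndal used below lie next to chr1:173879959 and chr1:173880188. A gene read from these starts ends short of Ifi211 (from chr1:173896345) and Ifi203 (from chr1:173920407). The counted reads come from 3′ ends, and some of these are nearly copies of each other. Of the 90-base windows in the last 500 bases of their transcripts, Ifi205 and Ifi211 each shared 59.37% with another gene (each other and Mndal), and Ifi209 shared 58.64% with Ifi214. The share was 7.54% for Ifi213, 4.25% for Mndal, 1.82% for Ifi208 and 0 for Ifi203, Ifi204 and Ifi207. Reads that match several genes can be dropped or split. By this measure alone, counts of Ifi205, Ifi211 and Ifi209 are less certain than those of Ifi204 and Ifi207. Ifi203 shared no window, but its overlap with Mndal is a further limit, and the effect on the counts was not tested.

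**Figure D1:**
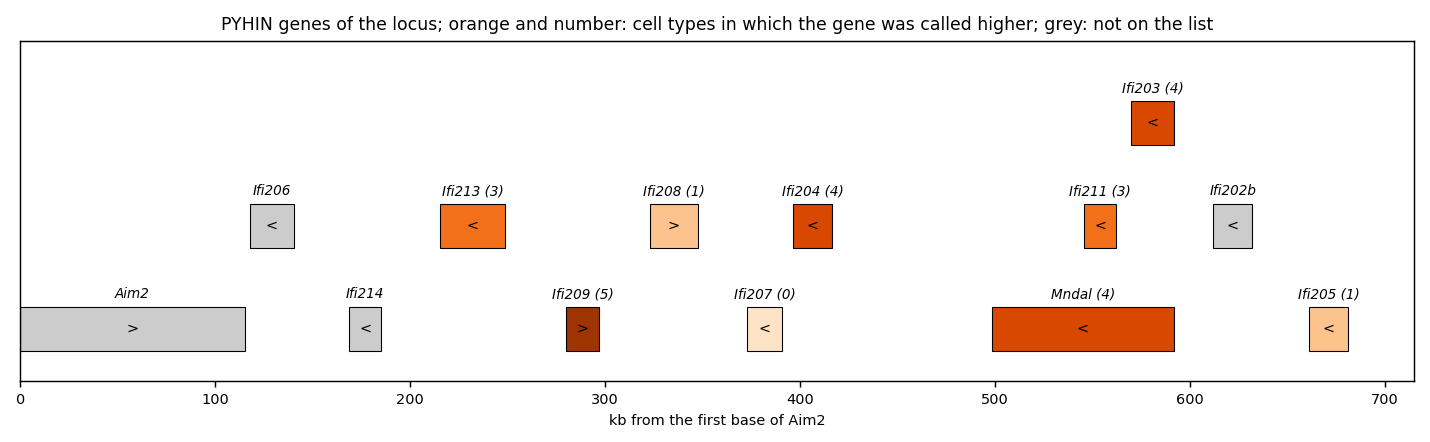
Map of the PYHIN genes on chromosome 1, with the distance in kb from the first base of Aim2 on the x axis and arrows for the strand; boxes in shades of orange are the 9 genes, grey boxes the other PYHIN genes, and the number beside a name is the number of gated cell types in which the gene was higher in the tumor libraries. Ifi209 has 5 such cell types, Ifi207 has 0, and Mndal, drawn at its GENCODE extent, covers Ifi211 and nearly all of Ifi203.

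The bases upstream of the transcription start were read from RefSeq (GRCm38.p6), which had an entry for 8 of the 9 genes and none used here for Ifi204. The core letters of the interferon-stimulated response element (GAAA, any 2 bases, then GAAA) occurred on either strand between 250 bases before and 50 bases after a start in 7 of these 8 genes, compared with 3.99% of 27025 genes in the same table. The letters of a gamma-activated site (TTC, any 3 bases, then GAA), which read alike on both strands, were found in none of the 8 genes and in 9.55% of all genes. The 250 upstream bases of 4 genes are shown, and whether they relate to the values that follow was not tested. Ifi205 was chosen for the largest log2 difference among called genes with a UMI in the controls. Ifi207 and Ifi211 were chosen for closely related windows (85.86% identity) and different results, and Ifi209 because it lacks the motif. Capitals mark this motif, and each line reads 5′ to 3′ on the strand of the gene.

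Ifi205, chr1:174031756-174032005, minus strand: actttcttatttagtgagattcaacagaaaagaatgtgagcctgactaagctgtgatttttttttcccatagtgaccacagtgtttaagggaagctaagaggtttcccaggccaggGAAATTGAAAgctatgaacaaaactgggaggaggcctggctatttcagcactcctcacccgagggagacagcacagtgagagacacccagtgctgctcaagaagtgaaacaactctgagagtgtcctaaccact
Ifi207, chr1:173741810-173742059, minus strand: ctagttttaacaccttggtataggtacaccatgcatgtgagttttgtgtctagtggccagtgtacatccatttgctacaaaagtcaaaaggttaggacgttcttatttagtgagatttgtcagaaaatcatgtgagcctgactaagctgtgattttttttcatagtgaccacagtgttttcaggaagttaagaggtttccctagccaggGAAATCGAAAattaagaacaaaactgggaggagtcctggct
Ifi211, chr1:173913047-173913296, minus strand: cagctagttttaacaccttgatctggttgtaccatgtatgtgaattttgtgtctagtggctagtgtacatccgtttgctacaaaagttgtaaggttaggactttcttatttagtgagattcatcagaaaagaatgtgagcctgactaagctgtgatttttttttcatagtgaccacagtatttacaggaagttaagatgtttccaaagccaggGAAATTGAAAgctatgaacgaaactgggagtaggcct
Ifi209, chr1:173630609-173630858, plus strand: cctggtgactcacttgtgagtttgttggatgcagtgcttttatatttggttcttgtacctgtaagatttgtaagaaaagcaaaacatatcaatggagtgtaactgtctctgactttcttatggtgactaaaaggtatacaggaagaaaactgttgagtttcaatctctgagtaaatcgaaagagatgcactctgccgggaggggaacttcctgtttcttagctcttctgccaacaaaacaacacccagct

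The match began 134 bases before the start of Ifi205, 41 before Ifi207 and 37 before Ifi211, and Ifi205 had another on the opposite strand, 24 bases after its start. In Ifi203, Ifi208 and Ifi213 it began 35, 58 and 73 bases upstream. Another entry of Ifi203, with a different start, held no match. Mndal had 2 entries, with a match 36 bases upstream of one start and 54 upstream of the other. In Ifi209 the closest letters were taaatcgaaa, 79 bases upstream, which differ by G1T counted from the first base of the motif, and gaaaagcaaa, 177 bases upstream, which differ by G7C. Among the other PYHIN genes, Ifi206 and Ifi214 held the motif and Aim2 and Ifi202b did not. These are matches of letters and were not tested for binding.

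The libraries held 3499 and 3862 cells from control skin and 5176 and 2258 from tumors, with 34893543 to 73904272 UMIs (unique molecular identifiers, each counting 1 captured RNA molecule). After the filters and the removal of likely doublets, between 1954 and 4555 cells remained per library, of which 49.4% to 62.6% passed a gate set on UMIs of cell type markers. No Ifi200 gene entered a gate, nor did any gene of the list of interferon-induced genes counted below. The gates did use MHC class II genes, Irf8 (cDC1) and Fcgr1 (macrophages and monocytes). Whether these respond to interferon here, and so shift the gates, was not tested. Cell types named here are those gates, and the remaining cells were left unnamed. C1q macrophages numbered 47 and 155 cells in the controls and 1605 and 570 in the tumors, and conventional type 2 dendritic cells (cDC2) 63, 96, 139 and 46. Langerhans cells (323 and 268 cells) and dendritic epidermal T cells (DETC, 582 and 625 cells) belonged almost wholly to the controls, with 1 and 4, and 3 and 13 cells in the tumors. Pairs of libraries shared 1 to 7 cell barcodes. All 4 libraries carried the Y-linked transcript Ddx3y, at 0.963 to 2.37 UMIs per 10000, and Xist at no more than 0.0062.

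In control skin the summed level of the 9 genes, in UMIs per 10000 UMIs of a gated cell type, was highest in monocyte-like cells (called monocytes here), at 14.7 and 20.5 in the 2 libraries. It was 13.7 and 9.12 in conventional type 1 dendritic cells (cDC1) and 9.81 and 11.8 in macrophages, and these did not separate. Neutrophils (6.36 and 3.43), cDC2 (4.36 and 4.62) and Langerhans cells (4.25 and 4.41) followed and overlapped. NK cells held 3.56 and 2.67 and overlapped the neutrophils. CD8 T cells held 3.03 and 2.93, regulatory T cells (Treg) 2.77 and 2.70 and CD4 T cells 2.59 and 2.55. Dermal gamma delta T cells had 1.78 and 2.17 and type 2 innate lymphoid cells (ILC2) 1.68 and 1.96. DETC, the resident gamma delta T cells of the epidermis, had 0.752 and 0.683, with mast cells at 0.192 and 0.423. With 2 libraries a group these orders are descriptions.

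The genes that made up this sum differed between lineages. A 3′ library counts 1 tag per molecule whatever the length of the transcript. UMIs of different genes are therefore set side by side without a length correction, within the limits given above for shared 3′ ends and overlapping genes. Ifi207 supplied 58.3% of the family UMIs of control Langerhans cells, 42.5% in cDC2 and 32.8% in macrophages, but 0.635% in CD8 T cells. Ifi204 supplied 67.0% in control neutrophils, and Ifi205 38.3% in control cDC1 compared with 0.971% in control cDC2. Mndal and Ifi203 dominated in lymphocytes, and Mndal alone gave 47.4% to 52.1% in NK, CD8 T, CD4 T and Treg cells of the controls. Ifi204, Ifi205 and Ifi207 were therefore mainly myeloid transcripts in control skin, and Mndal and Ifi203 were carried by both lineages.

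**Figure D2:**
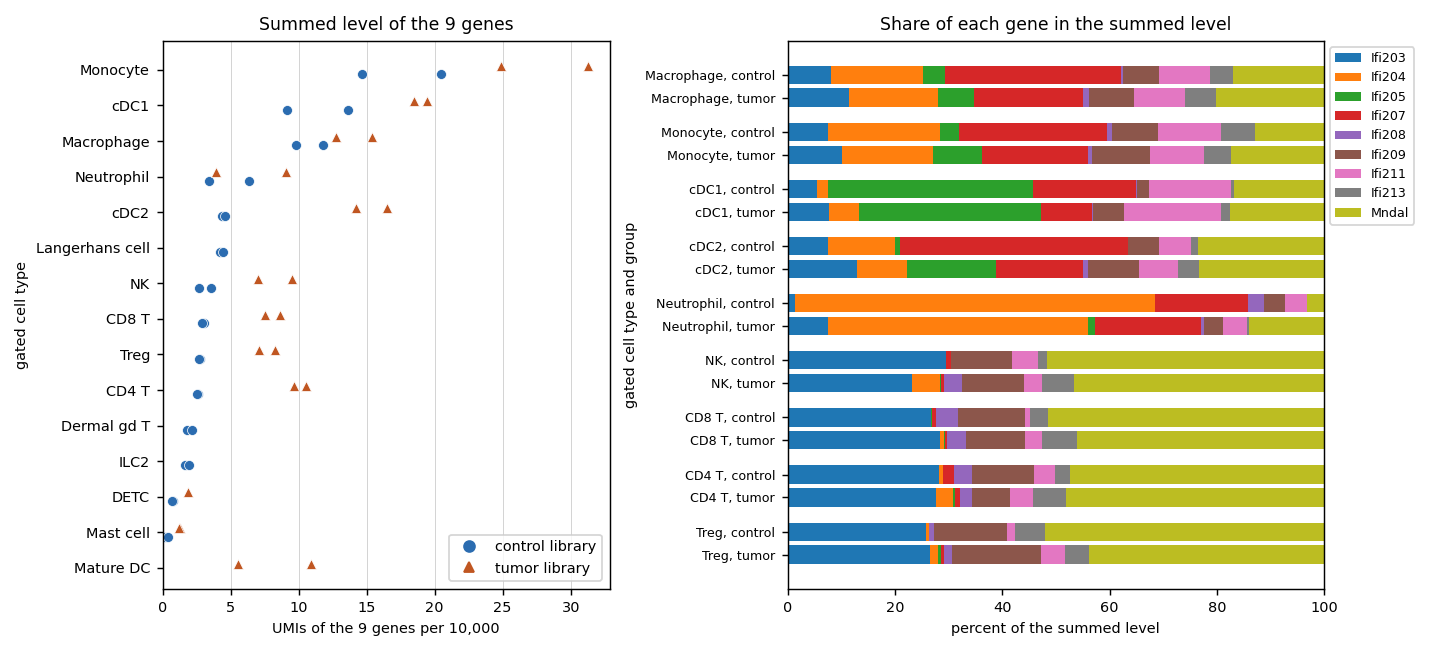
Left, summed level of the 9 genes in UMIs per 10000 (x axis) for each gated cell type with at least 10 cells, 1 point per library; right, percent of that sum given by each gene in control and tumor libraries (mean of the group). Monocytes have the highest sums in both groups, the 2 tumor points of cDC2 (16.5 and 14.2) lie far from the 2 control points (4.36 and 4.62), and green Ifi205 takes 0.971% of the control bar and 16.6% of the tumor bar in cDC2.

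Tumor was compared with control within each of 10 gated cell types that had at least 10 cells in every library, by edgeR's quasi-likelihood test on UMIs summed per library, with Benjamini-Hochberg adjustment over all genes of the cell type. Langerhans cells, DETC, ILC2, dermal gamma delta T cells and mature dendritic cells had too few cells in 1 group and were not tested. Of 90 possible tests, 61 passed the low-count filter. In 25 of these the gene was higher in the tumor and in 0 it was lower at an adjusted p under 0.05, compared with 2.79% higher and 3.14% lower over all 65239 tests of a gene in a cell type. At an unadjusted p under 0.05, 1 test pointed lower (Ifi207 in macrophages), and DESeq2 called 21 higher and 0 lower. Of the DESeq2 calls, 20 were among the 25 of edgeR. Calls of edgeR that DESeq2 did not make were Ifi204 in NK cells, Ifi209 and Ifi211 in CD8 T cells, Ifi209 in CD4 T cells and Ifi211 in Treg. The estimate was positive in 59 tests and negative in 2, both of them Ifi207. In 13 of the 61 tests the gene had under 10 UMIs in each control library and passed the filter through its tumor counts; 7 of the 25 calls are of that kind, and the other 18 had at least 10 UMIs in a control. Scaling to total UMIs without TMM (edgeR's trimmed mean scaling) moved the median log2 difference of all genes by 0.1 or more in several types, to 0.26 in cDC2, 0.28 in cDC1, 0.23 in macrophages, 0.21 in CD8 T cells and -0.25 in mast cells. It moved the split of all calls from 469 higher and 650 lower to 800 and 414 in cDC2, from 142 and 267 to 206 and 117 in cDC1, from 414 and 530 to 588 and 396 in CD8 T cells, from 45 and 32 to 119 and 47 in macrophages and from 52 and 34 to 40 and 53 in mast cells. The members then gave 27 calls higher and 0 lower.

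**Figure D3:**
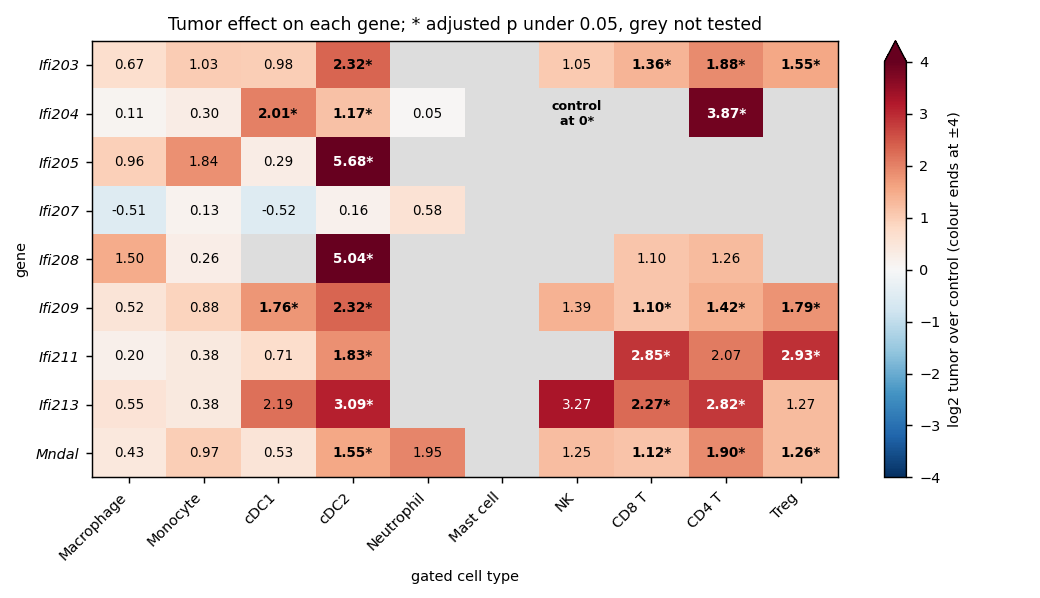
Log2 of tumor over control for each gene (y axis) and gated cell type (x axis), from edgeR. Color gives the estimate and ends at ±4, and asterisks mark an adjusted p under 0.05. Grey cells were not tested, except Ifi204 in NK cells, which was tested and called but is grey because both controls were at 0. The column of cDC2 carries 8 asterisks, the columns of macrophages, monocytes and neutrophils carry none, and no gene of the Ifi207 line carries one.

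The most calls were made in cDC2, the dendritic cells that present antigen mainly to CD4 T cells. All 9 genes were tested there and 8 were higher in the tumor, where 5.45% of 8611 genes were higher and 7.55% lower, and the median log2 difference of the 9 genes was 2.32 compared with 0.03 for all genes tested. The summed level was 4.36 and 4.62 UMIs per 10000 in the controls and 16.5 and 14.2 in the tumors. The number of family genes with at least 1 UMI in a cell averaged 2.94 and 2.76 of 9 in the control libraries and 5.78 and 5.13 in the tumor libraries, at median depths of 22584, 18718, 18821 and 19099 UMIs per cell.

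Ifi205, whose protein has been linked to transcription of the inflammasome adaptor Pycard in macrophages, changed most in cDC2. Its level in cDC2 was 0.0558 and 0.0314 UMIs per 10000 in the controls, resting on 8 and 6 UMIs, and 2.71 and 2.39 in the tumors, resting on 753 and 212 UMIs. The groups lay far apart, with a 58.4-fold ratio of means and a log2 difference of 5.68 ± 0.30 (SE; edgeR adjusted p = 0.000371). In cells thinned to 1000 UMIs each, 0.521% ± 0.737 of control cDC2 and 19.5% ± 6.03 of tumor cDC2 had an Ifi205 UMI (SD, n = 2 libraries), and without thinning 4.71% ± 2.18 and 63.9% ± 7.33. Control DETC, which should lack this myeloid transcript, showed 0.326% ± 0.218 after thinning and 1.14% ± 0.645 before, at median depths of 10339 and 10800 UMIs, so the thinned share of control cDC2 was not distinguishable from background. In the tumor libraries the background was less certain. Tumor 2 had an Ifi205 UMI in 1 of 13 DETC after thinning (7.69%) and 2 of 13 before (15.4%), tumor 1 in 0 of 3, and tumor NK, CD8 T, CD4 T and Treg cells had 0 to 0.41% after thinning and 0.917% to 5.46% before.

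The other 7 genes called in cDC2 had log2 differences from 1.17 to 5.04. Ifi203 went from 0.328 and 0.355 to 2.21 and 1.75 UMIs per 10000 (log2 difference 2.32 ± 0.21, edgeR adjusted p = 0.00234). Ifi209 went from 0.265 and 0.246 to 1.73 and 1.19 (2.32 ± 0.25, adjusted p = 0.00349). Mndal, the most abundant member in tumor cDC2, went from 1.00 and 1.11 to 3.60 and 3.58 (1.55 ± 0.19, adjusted p = 0.00439). In each of these 3 genes the lower tumor library was more than 3-fold above the higher control library. Ifi211 went from 0.223 and 0.308 to 1.10 and 1.13 (1.83 ± 0.23, adjusted p = 0.00535), Ifi213 from 0.0488 and 0.0732 to 0.838 and 0.360 (3.09 ± 0.48, adjusted p = 0.00916), and Ifi204 from 0.642 and 0.470 to 1.56 and 1.33 (1.17 ± 0.22, adjusted p = 0.0170). Ifi213 differed more between the tumor libraries than the others did. Ifi208 had 0 and 1 UMIs in the controls and 49 and 7 in the tumors, a ratio of 51.1 per UMI sequenced with a 95% counting interval of 8.8 to 2050 (edgeR adjusted p = 0.0149). Ifi207, the leading member in control cDC2, stood at 1.79 and 2.02 in the controls and 2.55 and 2.41 in the tumors, and its log2 difference of 0.16 ± 0.18 did not pass (adjusted p = 0.604). Ifi208 did not pass without control 1 or control 2 (edgeR adjusted p = 0.0615 and 0.0693), nor did Ifi204 without control 2 (0.154). The share of Ifi207 in the family UMIs was 42.5% in the controls and 16.2% in the tumors.

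Marker levels of other cell types moved with these results in cDC2, and their part was not tested. Summed over the 5 monocyte markers, the level was 2.96 and 3.54 UMIs per 10000 in control cDC2 and 11.5 and 6.75 in tumor cDC2, most of it Plac8 (0.279 and 0.303, then 9.44 and 4.43). Ccr2 stood at 2.59 and 2.97, then 1.92 and 2.01, Vcan at 0.0698 and 0.235, then 0.0072 and 0.191, and Ly6c2 ran from 0.0209 to 0.113. The monocyte marker Chil3 was at 0 in all 4 libraries. The cDC2 gate itself capped the summed UMIs of Ly6c2 and Chil3 in a cell. Their low values here are in part set by the gate and do not measure monocyte content. The 5 cDC1 markers summed to 2.96 and 2.72 in control cDC2 and 6.97 and 5.47 in tumor cDC2. The 8 macrophage markers summed to 11.4 and 11.5 in control cDC2 and 6.12 and 5.70 in tumor cDC2, and the 5 cDC2 markers to 22.3 and 22.9, then 15.6 and 15.3. When every dendritic cell with a UMI of Ly6c2, Chil3, Plac8 or Vcan was left out, an alternative chosen after these values were seen, Ifi205 and Ifi203 were still higher in tumor cDC2 (edgeR adjusted p = 0.00526 and 0.0236). This left 51 and 73 control cells and 22 and 17 tumor cells. The log2 difference was then 2.96 for Ifi213, 1.78 for Ifi209, 1.35 for Ifi211, 1.02 for Mndal and 0.81 for Ifi204. None of these 5 passed (edgeR adjusted p = 0.0716, 0.0941, 0.191, 0.0507 and 0.492), and Ifi208 was not tested. Of 10 genes of the response to tissue dissociation, 5 were also higher in tumor cDC2, among them the heat shock genes Hspa1a and Hspa1b.

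In cDC1, which take up dead cells and present antigen to CD8 T cells, 2 of the 8 tested members were higher in the tumor, where 2.09% of genes were higher and 3.93% lower. Ifi204 stood at 0.248 and 0.211 UMIs per 10000 in the controls and 1.27 and 0.891 in the tumors (log2 difference 2.01 ± 0.36, edgeR adjusted p = 0.0193). Ifi209 stood at 0.191 and 0.347, then 1.43 and 0.757 (1.76 ± 0.42, adjusted p = 0.0441). The groups overlapped in neither gene, but both tests rest on 23, 30, 77 and 14 cells. Without control 2 neither passed (edgeR adjusted p = 0.157 for Ifi204 and 0.171 for Ifi209), and Ifi209 did not pass without control 1 (0.157), without tumor 1 (0.139) or with a replicate block (0.0707). Ifi205 was already the leading member in control cDC1, at 5.35 and 3.37, and reached 6.59 and 6.24 in the tumors (0.29 ± 0.28, adjusted p = 0.581). Ifi211 stood at 2.06 and 1.40, then 2.65 and 4.21 (adjusted p = 0.217). The monocyte marker Plac8 moved here too, from 0.0381 and 0.719 to 4.52 and 2.07, and the share of cycling cells was 8.70% and 23.3%, then 37.7% and 35.7%. The 4 Langerhans cell markers summed to 14.9 and 9.67 in control cDC1 and 3.09 and 3.19 in tumor cDC1, and the 5 cDC2 markers to 0.5525 and 0.954, then 2.10 and 1.56. Of 10 dissociation genes, 4 were lower in tumor cDC1 (Atf3, Fos, Fosb and Junb). The part of these shifts was not tested.

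Macrophages and monocytes, which with cDC1 held the highest family levels of control skin, gave 0 calls of 9 tests each in edgeR. In simulated counts of the 6 types with a call, 14% to 21% of genes with a true log2 change of 1 were recovered. In simulated counts of macrophages and monocytes this share was 13% and 33%. The background was low in both, 0.383% of genes higher and 0.272% lower in macrophages and 0.121% and 0.0268% in monocytes, and 4 members of each type had an unadjusted p under 0.05 in the higher direction. DESeq2 called 0 members in macrophages and 1, Ifi205, in monocytes. The macrophage background depended on the fit, from 45 genes higher and 32 lower in the main fit to 144 and 192 with DESeq2. With a replicate block in edgeR it was 342 and 334. In macrophages the summed level was 9.81 and 11.8 UMIs per 10000 in the controls and 15.4 and 12.8 in the tumors. Ifi203 stood at 0.670 and 1.06, then 1.73 and 1.501 (log2 difference 0.67 ± 0.25, edgeR adjusted p = 0.331), and Ifi205 at 0.547 and 0.345, then 0.894 and 1.01 (0.96 ± 0.26, adjusted p = 0.168). Neither difference passed, although Ifi205 passed in 3 of 14 alternative settings and Ifi203 in 1. Ifi208 passed in 2 of these settings and Ifi213 in 1. Ifi204 stood at 1.54 and 2.17, then 2.59 and 2.07. Ifi207 pointed the other way, at 3.10 and 3.97 in the controls and 3.02 and 2.68 in the tumors (-0.51 ± 0.21, adjusted p = 0.372).

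Monocytes had the highest levels of the family, with sums of 14.7 and 20.5 UMIs per 10000 in the controls and 31.3 and 24.9 in the tumors. Ifi205 stood at 0.398 and 0.843 in control monocytes and at 2.50 and 2.58 in tumor monocytes, and did not pass (log2 difference 1.84 ± 0.33, edgeR adjusted p = 0.128). The share of thinned monocytes with an Ifi205 UMI was 7.75% ± 3.19 in the controls and 19.99% ± 1.73 in the tumors (SD, n = 2 libraries). This gene passed in monocytes in 6 of 14 alternative settings, and its adjusted p ranged from 3.24e-07 to 0.183. Neutrophils had Ifi204 as their leading member, at 4.74 and 1.83, then 3.82 and 2.49. The 3 members tested in neutrophils gave 0 calls in edgeR and in DESeq2 and 1 at an unadjusted p under 0.05, in a cell type where 0% of 2550 genes were called, and the 4 libraries held 14 to 81 neutrophils at median depths of 3171 to 4387 UMIs. No member could be tested in mast cells (2.36% of 2205 genes higher, 1.54% lower), where Mndal had 0 and 0 UMIs in the controls and 8 and 12 in the tumors, at least 4.98-fold more per UMI sequenced when the controls together are set at 3 UMIs.

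**Figure D4:**
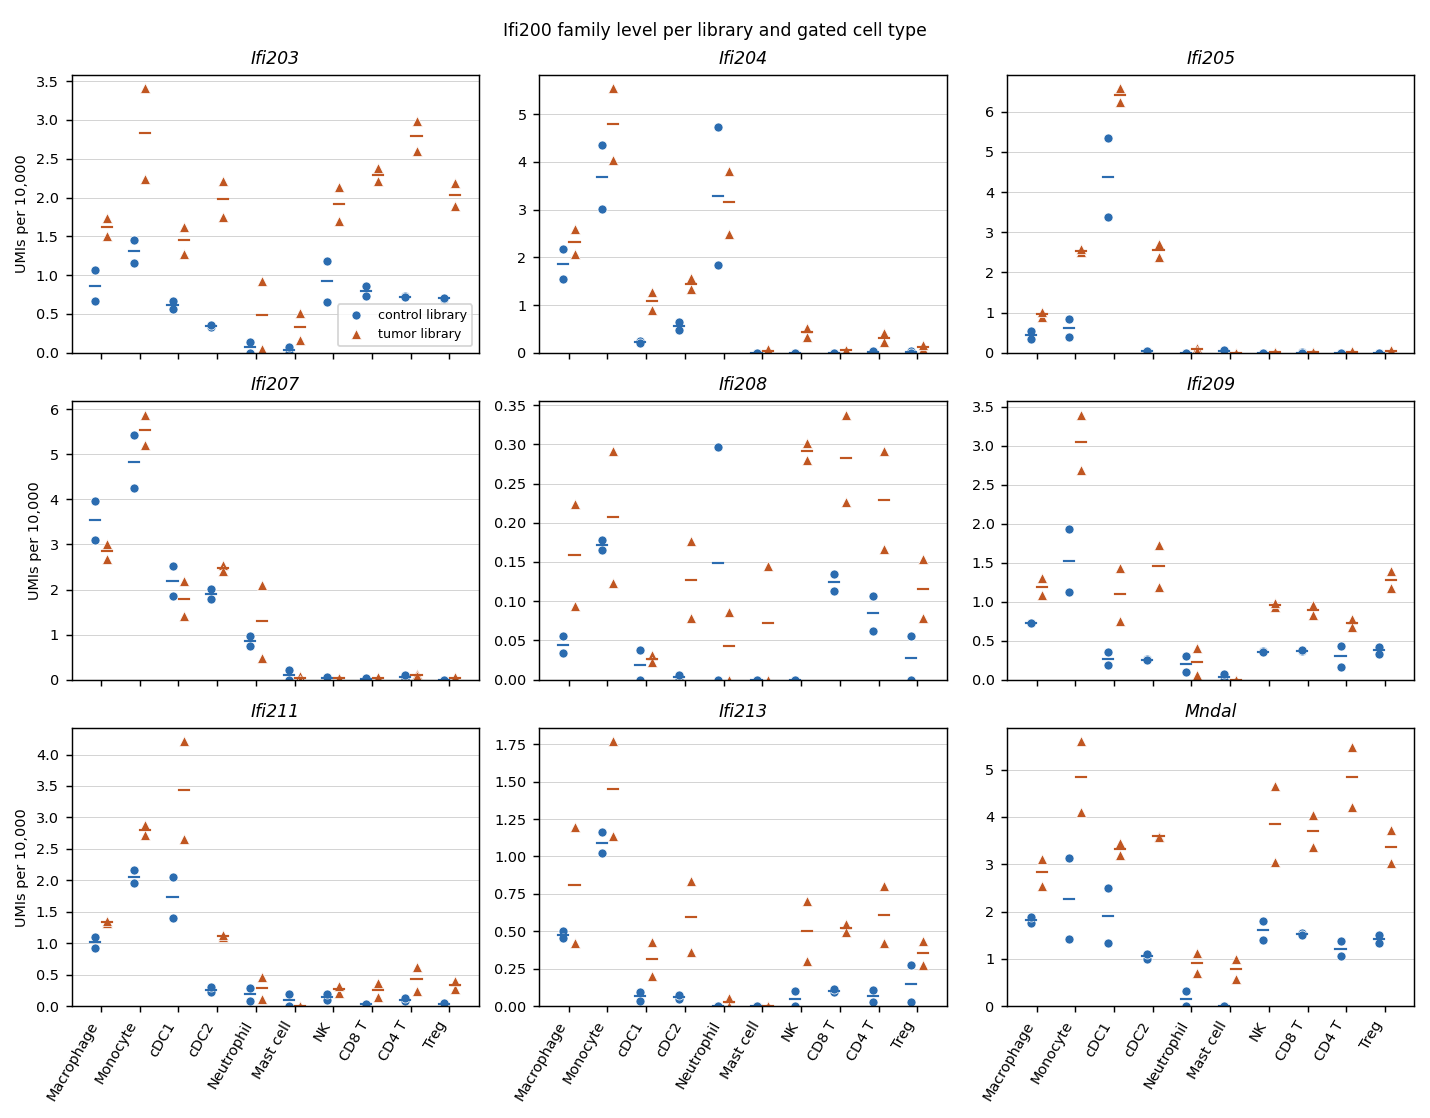
Level of each of the 9 genes in UMIs per 10000 (y axis, a scale of its own for each gene) in 10 gated cell types (x axis); circles are control libraries, triangles tumor libraries and short bars the mean of 2 libraries. In the Ifi205 panel cDC2 go from near 0 to 2.71 and 2.39, while cDC1 are high in both groups, and in the Mndal and Ifi203 panels the triangles of all 4 lymphocyte types lie above the circles. Neither Mndal nor Ifi203 was called in NK cells.

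Among lymphocytes Mndal, Ifi203 and Ifi209 were called in 3 types each (CD8 T, CD4 T and Treg), and Ifi204, Ifi211 and Ifi213 in 2 each. In CD8 T cells, the cytotoxic lymphocytes, 5 of 6 tested members were higher in the tumor, where 5.3% of genes were higher and 6.79% lower. Mndal stood at 1.55 and 1.51 UMIs per 10000 in the controls and 3.37 and 4.05 in the tumors (log2 difference 1.12 ± 0.22, edgeR adjusted p = 0.00802). Ifi203 stood at 0.860 and 0.737, then 2.21 and 2.38 (1.36 ± 0.22, adjusted p = 0.00378). Ifi213 stood at 0.0924 and 0.113, then 0.548 and 0.498 (2.27 ± 0.36, adjusted p = 0.00344). The controls and the tumors formed tight, separate pairs in these 3 genes. Ifi209 also rose (1.10 ± 0.27, adjusted p = 0.0240), as did Ifi211, which had only 3 and 2 UMIs in the controls and 59 and 16 in the tumors (adjusted p = 0.0291). Ifi208 stood at 0.135 and 0.113, then 0.338 and 0.226, and did not pass (adjusted p = 0.117). Mndal did not pass without control 2 (edgeR adjusted p = 0.0987), nor did Ifi209 without control 1 or control 2 (0.104 and 0.120) or Ifi211 without control 1 (0.242). The share of cycling CD8 T cells was 16.5% and 15.6% in the controls and 45.1% and 25.7% in the tumors, and Ifi203, Ifi209, Ifi213 and Mndal were still higher when cycling cells were left out, while Ifi211 then no longer passed the low-count filter.

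CD4 T cells, gated without Treg, had 5 of 7 tested members higher, where 6.41% of genes were higher and 4.8% lower, and the summed level was 2.59 and 2.55 UMIs per 10000 in the controls and 9.63 and 10.5 in the tumors. Mndal stood at 1.38 and 1.06, then 4.21 and 5.49 (log2 difference 1.90 ± 0.26, edgeR adjusted p = 0.00147). Ifi203 stood at 0.731 and 0.715, then 2.98 and 2.597 (1.88 ± 0.24, adjusted p = 0.000994). Both genes were at least 3-fold higher in every tumor library than in any control library. Ifi213 had 8 and 1 UMIs in the controls and 85 and 33 in the tumors (2.82 ± 0.54, adjusted p = 0.00773), and Ifi209 at 0.160 and 0.436, then 0.772 and 0.678 (1.42 ± 0.40, adjusted p = 0.0465). Ifi204 had 1 and 1 UMIs in the controls and 23 and 33 in the tumors, a ratio of 16.3 per UMI sequenced with a 95% counting interval of 4.31 to 138 (adjusted p = 0.00986). Ifi211 missed the threshold (adjusted p = 0.0569). Without control 1, edgeR's adjusted p was 0.0501 for Ifi203, 0.0806 for Ifi213, 0.397 for Ifi209 and 0.190 for Ifi204. It was 0.0557 for Ifi213 without control 2 and 0.0719 for Ifi204 without tumor 2.

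In Treg, the Foxp3+ cells that restrain other lymphocytes, 4 of 5 tested members were higher, where 3.23% of genes were higher and 2.57% lower. Ifi203 stood at 0.699 and 0.709 UMIs per 10000, then 2.19 and 1.89 (log2 difference 1.55 ± 0.25, edgeR adjusted p = 0.00653). Ifi209 stood at 0.419 and 0.327, then 1.39 and 1.17 (1.79 ± 0.30, adjusted p = 0.00873), and Mndal at 1.51 and 1.34, then 3.72 and 3.02 (1.26 ± 0.23, adjusted p = 0.0113). Every tumor value lay above every control value. Ifi211 had 1 and 2 UMIs in the controls and 30 and 21 in the tumors, a ratio of 7.6 with a 95% counting interval of 2.46 to 38.1 (adjusted p = 0.0323). Mndal did not pass without control 2 (0.0559), nor did Ifi211 without control 1 (0.134), control 2 (0.0730) or tumor 1 (0.0994).

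NK cells had 1 call of 5 tests, where 0.651% of genes were higher and 0.61% lower. Ifi204 was at 0 in both controls, of 17 and 16 cells, and had 41 and 17 UMIs in the tumors, at least 5.86-fold more per UMI sequenced when the controls together are set at 3 UMIs (edgeR adjusted p = 0.0474). DESeq2 did not call it (adjusted p = 0.0980), nor did edgeR with stricter gates (adjusted p = 0.0875). It did not pass without control 1 (0.197), control 2 (0.102) or tumor 2 (0.256). Mndal stood at 1.80 and 1.41 in control NK cells and at 4.65 and 3.04 in tumor NK cells, without passing (1.247 ± 0.32, adjusted p = 0.103), and Ifi203, Ifi209 and Ifi213 also did not pass (adjusted p = 0.219, 0.142 and 0.160).

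Markers of other cell types also differed between the lymphocytes of the tumor and control libraries. The 8 macrophage markers summed to 0.120 and 0.436 UMIs per 10000 in control CD4 T cells and 0.772 and 0.883 in tumor CD4 T cells, compared with 68.4 to 102 in macrophages. The sums were 0.284 and 0.227, then 0.563 and 0.951 in CD8 T cells, 0.280 and 0.545, then 0.633 and 1.07 in Treg, and 0.0516 and 0.403, then 0.766 and 0.661 in NK cells. In CD8 T cells the 5 monocyte markers summed to 2.49 and 2.63, then 7.01 and 8.58, of which Plac8 gave 0.149 and 0.359, then 3.83 and 4.44, with Chil3 at 0 in all 4 libraries. The 5 cDC1 markers went from 0.213 and 0.397 to 1.56 and 2.24 in CD8 T cells, in the tumors mostly Irf8 (1.49 and 2.06). In CD4 T cells the 4 Treg markers went from 6.66 and 7.28 to 10.9 and 11.2. The part of these markers was not tested. Mndal and Ifi203 had levels in tumor CD4 T cells (4.21 and 5.49, 2.98 and 2.597) above those in tumor macrophages (3.11 and 2.55, 1.73 and 1.501). Of the other genes called in CD4 T cells, Ifi204 and Ifi209 had lower levels there than in tumor macrophages, and Ifi213 overlapped. Ifi204 had 0.2165 and 0.4222 in tumor CD4 T cells and 2.59 and 2.07 in tumor macrophages. For Ifi209 these levels were 0.772 and 0.678 against 1.299 and 1.08, and for Ifi213 0.8 and 0.4222 against 1.196 and 0.4245. Whether macrophage RNA added to any of these levels was not tested. In an alternative chosen after these values were seen, lymphocytes that held a UMI of C1qa, C1qb or C1qc were left out, which covers no other marker. All 5 calls in CD8 T cells, 4 of 5 in CD4 T cells and 3 of 4 in Treg remained. Ifi204 in CD4 T and NK cells and Ifi211 in Treg no longer passed the low-count filter. The removal was uneven. Control CD8 T cells went from 127 and 45 to 113 and 43, and tumor CD8 T cells from 244 and 35 to 124 and 14. Control Treg went from 43 and 43 to 37 and 31, and tumor Treg from 124 and 55 to 81 and 27. Tumor CD4 T cells went from 109 and 83 to 68 and 47, and controls from 68 and 32 to 65 and 27. Dissociation genes were higher in 5 of 10 tests in CD8 T cells, with 4 lower, in 5 of 10 in CD4 T cells, in 5 of 8 in Treg and in 3 of 9 in NK cells, and their part was not tested.

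Whether the tumor effect differed between cell types was tested in 1 edgeR fit over the 40 sums of the 10 cell types, with library as a term, in which 9.75% of 10283 genes passed. Ifi205 passed with an adjusted p of 1.74e-05, followed by Ifi204 (0.00505), Ifi213 (0.0101) and Ifi211 (0.0318). Ifi208 (0.0579), Ifi209 (0.0964), Mndal (0.108), Ifi203 (0.213) and Ifi207 (0.464) did not pass. Set against macrophages, the effect in cDC2 was larger for Ifi205 by 4.71 ± 0.53 on the log2 scale (adjusted p = 1.48e-05), for Ifi213 by 2.52 ± 0.54 (0.0142) and for Ifi209 by 1.75 ± 0.42 (0.0350), and the effect in CD4 T cells was larger for Ifi204 by 3.79 ± 0.93 (0.0213). The result for Ifi204 rests on few control UMIs, 1 and 1 in CD4 T cells and 1 and 0 in Treg. In NK and CD8 T cells both controls of Ifi204 were at 0. For Mndal and Ifi203 a difference between cell types was not detected. For Ifi205 the log2 difference was 5.68 in cDC2 and 0.29 in cDC1, where the level was already high in control skin, and this pair was not tested directly.

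The other PYHIN genes with a row were Aim2, Ifi206, Ifi214 and Ifi202b. Aim2 passed in none of the 10 cell types. In macrophages it stood at 1.19 and 0.877 UMIs per 10000 in the controls and 1.14 and 0.910 in the tumors (log2 difference -0.19 ± 0.21, edgeR adjusted p = 0.801), and in CD8 T cells at 2.05 and 1.57, then 1.41 and 1.70 (-0.40 ± 0.23, adjusted p = 0.297). Ifi206 was higher in tumor cDC2 (2.15 ± 0.50, adjusted p = 0.0328) and CD8 T cells (1.49 ± 0.41, adjusted p = 0.0420). Ifi214, which shares much of its 3′ end with Ifi209, was higher in CD8 T cells (4.14 ± 0.60, adjusted p = 0.00184). Aim2 and Ifi207 were thus the PYHIN genes that were tested in several types and passed in none.

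Partners of the family in cytosolic DNA sensing were counted in the same fits. Together with the other PYHIN genes they gave 16 calls higher and 1 lower in 115 tests. Over all 65239 tests of a gene in a cell type, 2.79% were higher and 3.14% lower. Zbp1, a sensor of nucleic acids in the Z form that is also on the list of interferon-induced genes, gave 6 of the 16, in cDC1, cDC2, NK, CD8 T, CD4 T and Treg cells. In cDC2 Zbp1 stood at 0.188 and 0.267 UMIs per 10000 in the controls and 1.49 and 1.38 in the tumors (log2 difference 2.43 ± 0.23, edgeR adjusted p = 0.00236). STING (Tmem173) gave no call. It stood at 0.202 and 0.220, then 0.590 and 0.394 in cDC2 (1.03 ± 0.29, adjusted p = 0.0546). The DNA sensor cGAS (Mb21d1) was higher in CD8 T cells (2.12 ± 0.44, adjusted p = 0.0111). The inflammasome adaptor Pycard was higher in cDC2 (1.00 ± 0.19, adjusted p = 0.0174) and Treg (1.27 ± 0.30, adjusted p = 0.0375), and the nuclease and dNTPase Samhd1 in cDC2 (1.02 ± 0.24, adjusted p = 0.0350). Il1b, whose protein the inflammasome matures, was higher in macrophages, cDC1 and cDC2, and in macrophages it went from 3.94 and 3.76 to 12.4 and 15.4 (adjusted p = 0.0308). Il18 was lower in cDC1 (adjusted p = 0.0385).

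Classical interferon-induced genes were counted in the same fits. In cDC2, 18 of 19 tested genes of that list were higher, in CD4 T cells 15 of 18, in CD8 T cells 11 of 18, in cDC1 9 of 16, in Treg 7 of 16 and in NK cells 4 of 14. Macrophages and monocytes each had 1 of 19 (in monocytes Gbp2, a guanylate binding protein), with 0 of 13 in neutrophils and 0 of 4 in mast cells. At an unadjusted edgeR p under 0.05 these types had 11, 10, 6 and 1 higher. The 6 cell types with a family call had 4 to 18 interferon-induced genes called, and the others 0 or 1. The share of all genes called higher was 0.651% to 6.41% in these 6 types and 0% to 2.36% in the others. This is a count over 10 cell types that share the same 4 libraries, and a link was not tested. Ifng was higher in tumor CD4 T cells, from 0.864 and 0.436 to 2.00 and 2.67 (log2 difference 1.68 ± 0.32, edgeR adjusted p = 0.00742). Ifnb1 had 0 UMIs in cDC1, cDC2 and monocytes of both controls, and in tumor cDC2 it stood at 0.147 and 0.0225. In macrophages it stood at 0 and 0.0696 in the controls and 0.223 and 0.162 in the tumors and did not pass (1.80 ± 0.64, edgeR adjusted p = 0.299). Among the receptor genes, Ifnar2 was lower in CD8 T (-1.60 ± 0.29, adjusted p = 0.00606) and CD4 T cells (-2.06 ± 0.27, adjusted p = 0.00115), and Ifnar1 and Ifngr2 were lower in CD4 T cells.

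Over 51 sums of a library and cell type with at least 10 cells, the gene closest to each member, of 7964 searched, was a different one, by Pearson correlation on a log2 scale with UMIs scaled to the total of each sum. These sums share libraries and cell types, so the values are descriptions. Ifi204 was most like Cd14 (r = 0.913), the coreceptor for lipopolysaccharide, and Ifi207 most like Tgfbi (r = 0.931) and Cd68 (r = 0.906), a lysosomal marker of phagocytes. Ifi205 was most like Gatm (r = 0.875). Ifi209 was most like Gbp9 (r = 0.829), Ifi213 most like Ms4a4c (r = 0.809) and Ifi208 most like Dtx3l (r = 0.682). For Ifi203, Ifi211 and Mndal the closest genes were Ndufs3 (r = 0.821), Actb (r = 0.799) and Ppp2r3c (r = 0.881). Within the family, Ifi203 and Mndal were closest (r = 0.902), followed by Ifi204 and Ifi207 (r = 0.82), whereas Ifi205 and Ifi208 were least alike (r = 0.107). Mndal overlaps Ifi203 on the same strand in the GENCODE annotation, and the effect of this on their correlation was not tested. Ifi203 and Mndal each have several starts. The most alike pair of their 300-base windows around a start was 90.68% identical, and the other pairs were 49.29% to 52.17% identical.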

How the data were processed

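RNA of sorted CD45+ cells was measured in 4 droplet libraries. The authors aligned the reads to mm10 and deposited raw UMI counts per gene and cell, made with Cell Ranger (7.1.0 in the submitters' processing notes, 7.0.1 in the file headers); whether intron reads were counted was not given in the sources used here. Droplets below 100 genes or 1000 UMIs, above 15% mitochondrial UMIs or below 0.8 in log10 genes over log10 UMIs were dropped, and likely doublets (1% per 1000 cells) were removed by comparison with simulated pairs. Cell types were gates on marker UMIs without clustering. Counts were summed per library and type and tested with edgeR 4.0.16 (quasi-likelihood, TMM, filterByExpr, R 4.3.3) in types with at least 10 cells in every library, with Benjamini-Hochberg adjustment at 0.05. The script was tested on simulated data. A true log2 change of 1 was recovered in 9% (mast cells) to 33% (monocytes) of changed genes. For a log2 change of 2 this was 62% (mast cells) to 96% (Treg). DESeq2 1.42.0, other filters, gates and scalings, a replicate block and leaving out each library were alternatives. Shares of cells used cells thinned to 1000 UMIs. Intervals cover counting error at 95%, and a count of 0 was set at 3 UMIs. The members and gene lists were chosen with earlier results of these data known. Genes named outside the family were members of these lists, or the genes most alike by correlation. Library depth ranged from 34893543 to 73904272 UMIs. The full genotype of the model behind the 2323 line and 1 gene of the interferon-induced list are not reported here by name.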

Additional observations from a re-analysis of the deposited data

Results flagged for a closer look

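In 4 of the 9 genes the difference between tumor and control was unequal among the 10 cell types by edgeR's F test for the interaction of type and group, with Benjamini-Hochberg adjustment over 10283 genes, of which 9.75% passed. The fit kept cell types with 0 control UMIs, as for Ifi204 in NK and CD8 T cells. Ifi205 had the smallest adjusted p (1.74e-05) and passed in 10 of 10 alternative settings, between 2.02e-13 and 0.00244. Ifi204 (0.00505) and Ifi213 (0.0101) each passed in 7 of 10 settings, with adjusted p up to 0.134 and 0.173. Ifi211 (0.0318) passed in 5 of 10, with adjusted p up to 0.525, and shares 59.37% of its 3′ windows with other genes.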

How the results depend on the processing

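The main analysis gave 25 member calls higher, and calls lower stayed at 0 in all 14 alternatives. The calls higher numbered 16 with stricter gates, in 8 fitted types, and 14 without cells holding UMIs of another class, in 9 fitted types and chosen after seeing the data. Both fit fewer cells, and cDC1 could be fitted in neither, so its 2 calls were not tested there. With stricter gates Ifi204 in cDC2 and NK cells, Ifi209 in CD8 T and CD4 T cells and Ifi213 in CD4 T cells were tested and did not pass. Leaving out 1 library gave 15 to 28 calls, with 15 without control 1, 18 without control 2, 24 without tumor 1 and 28 without tumor 2. Calls kept in every alternative numbered 7, which were Ifi203 and Ifi205 in cDC2, Ifi203 and Ifi213 in CD8 T cells, Mndal in CD4 T cells and Ifi203 and Ifi209 in Treg. Of single-gene results in a cell type, 731 kept their side of the threshold, 44 lost a call and 32 gained one.

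The count of members whose effect differed between types was 4, and it was 1 with stricter gates and 2 without the library term. Leaving out 1 library gave 1 to 5, the lowest without control 2, and 2 without control 1. For the other PYHIN and DNA-sensing genes, calls higher went from 16 to 27 without the low-count filter, 10 with stricter gates and 8 without cells holding UMIs of another class, and ranged from 8 to 25 when 1 library was left out. Their 1 call lower, Il18 in cDC1, went to 0 without TMM and with DESeq2. With stricter gates, without cycling cells and without cells holding UMIs of another class, cDC1 was not fitted and 0 were called lower. The count was 2 without the low-count filter, and it varied when 1 library was left out. The cause of the other changes was not tested.

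Libraries of equal replicate number showed little shared deviation over all genes (median correlation of deviations 0.0133 over cell types). This measure cannot settle whether the samples were paired. With the replicate block 28 member calls were higher, of which 24 were among the 25, and Ifi209 in cDC1 was lost at an adjusted p of 0.0707. With the crossed pairing, chosen after seeing the data, there were 26. Calls of all genes in macrophages went from 45 higher and 32 lower to 342 and 334 with the block. They were 76 and 59 with the crossed pairing. In cDC1 they went from 142 and 267 to 112 and 214 with the block, and 238 and 443 when crossed. Depth limits the rarest members most: 13 of 61 tests had under 10 UMIs in each control library, and 29 of 90 could not be tested.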
